A study of Drosophila melanogaster with 2 samples.

Results

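A set of 10 genes of the Drosophila cell cycle was followed through ChIP-seq of the DNA-binding protein ZIPIC, namely CycA, CycB, CycB3, CycD, CycE, Cdk1, Cdk2, Cdk4, stg and fzy. They were taken by symbol from a gene annotation that holds 13986 protein-coding genes, and all 10 were found in it. The rule uses no measured value, but the set was drawn up with earlier results of these data known. ZIPIC (CG7928), a zinc-finger protein counted among the architectural or insulator proteins, was precipitated through a C-terminal GFP tag, with an anti-GFP antibody, from whole embryos of the transgenic strain CG7928-GFP. The embryos were 0 to 24 h old and of both sexes, and all samples carried the tagged protein. The 2 samples are biological replicates of 1 group, numbered 2 and 3, so no condition could be compared with another. Embryos of this age range hold rapidly dividing nuclei as well as cells that have left the cycle, and a signal from the whole organism cannot be assigned to either. Peak lists hold no transcripts, so the labelled stage could not be checked against marker expression.

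Cyclins activate cyclin-dependent kinases (Cdks). CycD with Cdk4 acts in G1 and in growth, CycE with Cdk2 starts S phase, and CycA, CycB and CycB3 with Cdk1 drive mitosis. The phosphatase encoded by stg (string, the Cdc25 of the fly) removes inhibitory phosphates from Cdk1, and its transcription times the embryonic divisions after cellularisation. The product of fzy (fizzy, the Cdc20 of the fly) activates the anaphase-promoting complex, which marks mitotic cyclins for destruction. Architectural proteins are known to sit near promoters and domain borders, often at head-to-head gene pairs.

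For each gene, every listed entry was taken whose summit lay within 500 bp of an annotated start or inside the gene. The 4 lists on the dm6 assembly were a list from each replicate, a list from the pooled replicates, each with 30000 entries, and 2971 optimal peaks. The optimal peaks were the 2971 strongest pooled entries, with signal values from 126 to 7447 and a median of 209. The signal is the authors' own score per entry. Its scale is not given, and it is used here only to describe, rank and compare entries within a list. The exception is a ratio of pooled to summed replicate signals, given at the end. Rank 1 is the strongest. The 10 genes held 4 optimal peaks, 15 pooled entries, 8 entries of replicate 2 and 23 entries of replicate 3.

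The sequences under 5 of these summits are shown: the strongest site of the set (fzy), both other optimal sites on the left arm of the second chromosome (Cdk1 and CycE), and weaker entries that hold a promoter element (CycB3 and Cdk2). The entry of CycB, weaker than these optimal sites, also holds a ZIPIC match and is described further on without its sequence. All are given on the plus strand of dm6, read from RefSeq's copy of that assembly, and none overlaps an annotated exon. Capitals mark matches, on either strand, to AGGGNTG (the short form of the ZIPIC core), CGATA (bound by BEAF-32) or GGTCACACT (bound by M1BP). The first is the whole interval between the starts of cni and fzy, chr2L:16310727-16310955. A GGTCACACT that begins 8 bp before the fzy start is cut off by the end of this interval and so is not in capitals. The next 2 are the windows of 101 bp around the optimal summits at Cdk1 (chr2L:10386411-10386511) and in CycE (chr2L:15747070-15747170), which hold no match. The last 2 are the parts upstream of the gene at the weaker entries of CycB3 (chr3R:24870817-24870905) and Cdk2 (chr3R:20735528-20735622).
cni-fzy: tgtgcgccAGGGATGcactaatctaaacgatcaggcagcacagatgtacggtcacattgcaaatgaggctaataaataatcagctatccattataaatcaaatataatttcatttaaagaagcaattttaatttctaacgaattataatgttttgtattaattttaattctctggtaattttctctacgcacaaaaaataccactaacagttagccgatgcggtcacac
Cdk1: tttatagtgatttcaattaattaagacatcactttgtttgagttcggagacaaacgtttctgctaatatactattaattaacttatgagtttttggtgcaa
CycE: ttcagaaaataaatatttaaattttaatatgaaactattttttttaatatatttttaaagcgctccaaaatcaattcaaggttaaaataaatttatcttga
CycB3: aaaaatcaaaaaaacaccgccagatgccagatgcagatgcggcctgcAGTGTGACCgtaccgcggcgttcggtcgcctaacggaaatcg
Cdk2: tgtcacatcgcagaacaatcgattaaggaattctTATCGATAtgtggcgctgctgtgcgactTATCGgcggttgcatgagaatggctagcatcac

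An optimal peak lay within 500 bp of a start at 3 of the 10 genes, fzy, Cdk1 and CycB, where 18.3% of all protein-coding genes had one. With the gene body included, CycE was added, making 4 of 10 against 21.1% of protein-coding genes. These shares are described and not tested, since 10 listed genes are no random draw. The genes differ in length from 1524 bp (Cdk1) to 20570 bp (CycE), and a longer gene offers more room for a summit. The 4 signals were far apart. The peak at fzy had a signal of 2325 and rank 93, while CycE had 229 (rank 1321), Cdk1 146 (rank 2425) and CycB 141 (rank 2529). Among the 2561 protein-coding genes with an optimal peak at a start, ordered by their strongest one, fzy held place 155, Cdk1 place 2221 and CycB place 2288.

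**Figure D1:**
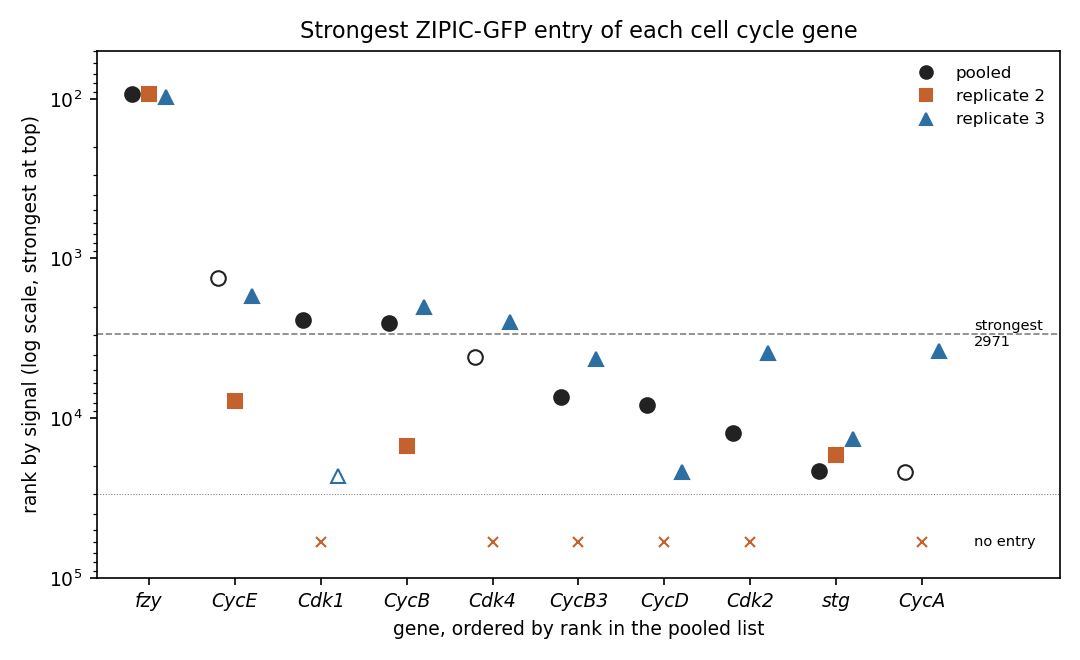
Rank by signal (log axis, strongest at the top) of the strongest entry of each gene in the pooled list (circles), replicate 2 (squares) and replicate 3 (triangles); open symbols lie in the gene but over 500 bp from a start, crosses mark genes with no entry, the dashed line is rank 2971 and the dotted line rank 30000. The fzy ranks are 93, 93 and 98, while 6 genes have no entry in replicate 2.

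The activator of mitotic exit, fzy (chr2L:16310956-16313097, plus strand), had the strong site of the set. Its pooled peak (chr2L:16310584-16311039) reached 2325, replicate 2 had 1246 (rank 93) and replicate 3 had 1084 (rank 98). The 3 summits fell within 4 bp of each other, 190, 192 and 194 bp upstream of the fzy start. That position is nearer to another gene: cni (cornichon, a cargo receptor for export from the endoplasmic reticulum) starts 38 bp from the pooled summit on the opposite strand, and the starts of the pair are 230 bp apart. A peak between head-to-head starts cannot be assigned to either gene. Replicate 2 listed the same interval again with a weaker summit of 38.7, 31 bp inside fzy in its 5' UTR, and replicate 3 had a weak entry of 23.0 in the coding sequence. The AGGGNTG match printed above lay 23 bp from the pooled summit, towards cni. The full core CAGGGCTG was not found in the entry.

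Cdk1, the kinase of mitosis (chr2L:10384739-10386262, minus strand), gave the pattern that differed most between lists. Its optimal peak (chr2L:10386256-10386665, signal 146) had an intergenic summit 199 bp upstream of Cdk1 and 201 bp from mRpS7, which encodes a mitochondrial ribosomal protein and is transcribed away from it. Replicate 2 had no entry within 1000 bp of that summit. In replicate 3 the only entry that covered it had a signal of 21.3 and rank 24686, with its own summit 202 bp away, just inside Cdk1 in the 5' UTR. A further replicate 3 entry of 22.3 (rank 23110) lay in an intron of the gene. Of the 2971 optimal peaks, 5 (0.168%), this one included, had no entry in replicate 2 and either none or one no stronger than rank 24686 in replicate 3. That cutoff is the rank of the Cdk1 entry itself, so the share only describes this peak. The Cdk1 peak thus comes from the pooled list, and neither replicate's own list holds it among its 2971 strongest entries.

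The other regulator of mitotic entry, stg (chr3R:29251826-29255800, minus strand), held weak entries only. It has 2 annotated starts 475 bp apart. The pooled entry (signal 40.6, rank 21529) and the replicate 3 entry (30.6, rank 13446) had their summits 26 and 57 bp downstream of the inner start, in the 5' UTR. The replicate 2 entry (28.8, rank 17014) lay 282 bp upstream of the outer start instead, so the replicates pointed to different places. The nearest optimal peak was 25964 bp from a stg start, in the 5' UTR of Usp1. Another replicate 3 entry, of signal 22.5, lay in the 3' UTR.

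**Figure D2:**
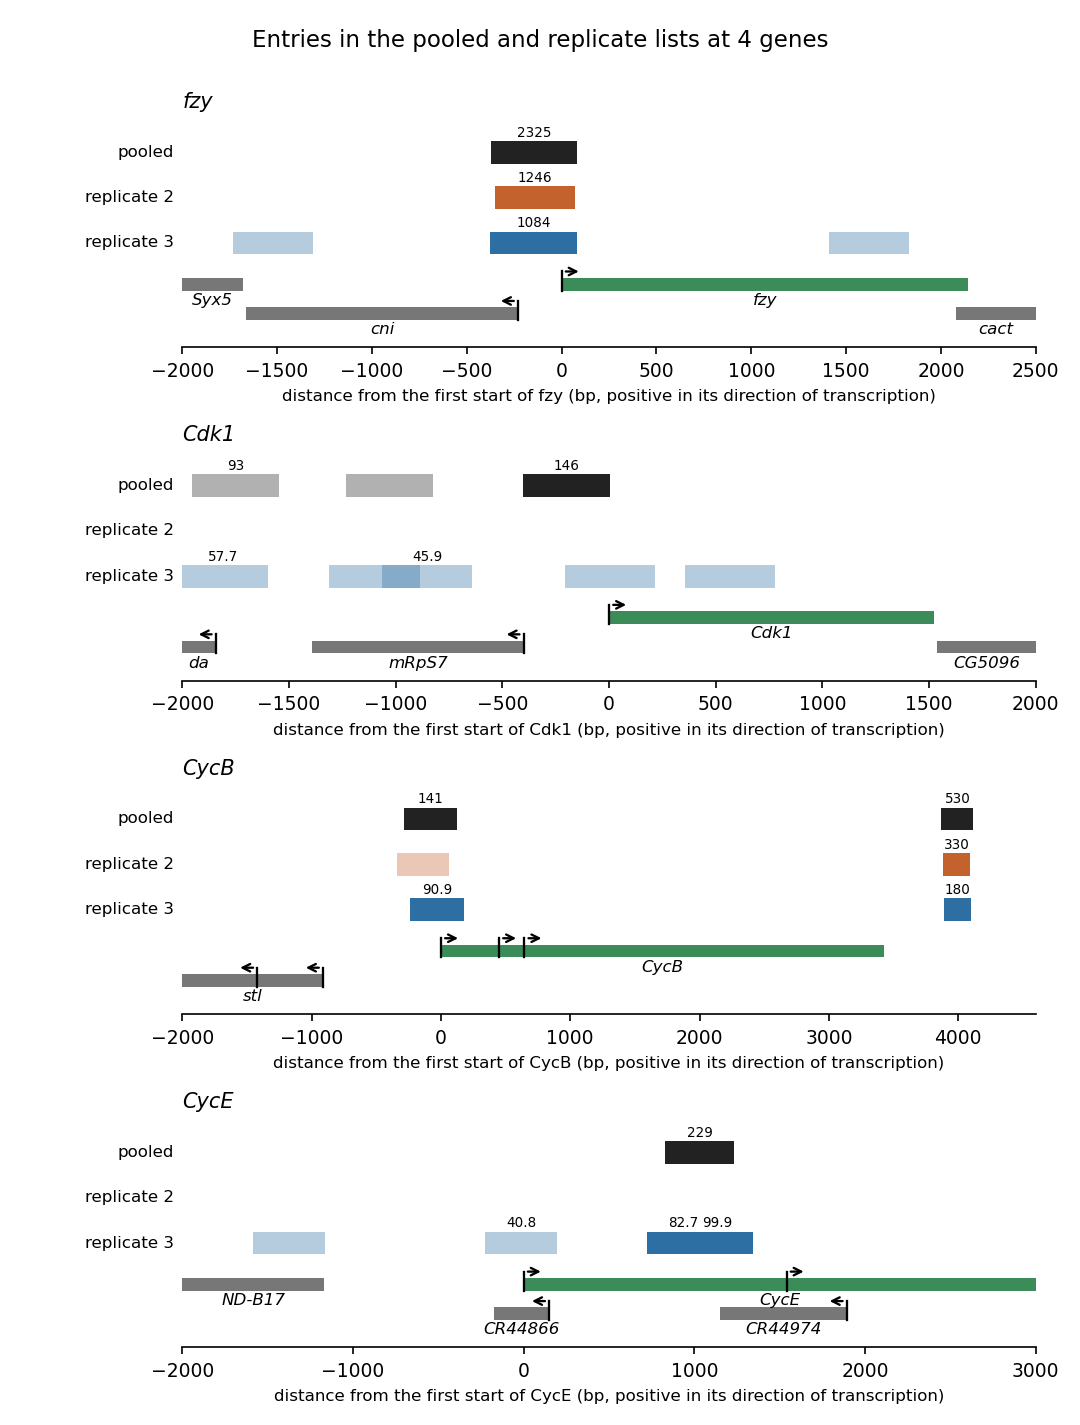
Entries of the pooled list (black), replicate 2 (orange) and replicate 3 (blue) at fzy, Cdk1, CycB and the first part of CycE, in bp from the first start of the gene; full colour marks entries among the 2971 strongest of their list, pale colour weaker ones, numbers give signal for ranks up to 8000, and arrows mark annotated starts. The 3 entries at fzy coincide with signals of 2325, 1246 and 1084, whereas the Cdk1 peak of 146 has no counterpart of full colour in either replicate.

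The mitotic cyclins fell in different ranges. CycB (chr2R:22803521-22806948, minus strand) has 3 starts over 645 bp, and every entry lay upstream of the outermost. The pooled optimal peak (chr2R:22806821-22807230) had a signal of 141 with its summit 78 bp upstream. Replicate 3 had 90.9 at 31 bp (rank 2009), and replicate 2 only 30.1 at 141 bp (rank 15022). The peak was thus among the strongest entries of replicate 3 and far down the list of replicate 2. No start of another gene lay within 500 bp of the pooled summit. CycB was also the only member with the full ZIPIC core CAGGGCTG in one of its entries. The core lay 117 bp from the pooled summit, 164 bp from the summit of replicate 3 and 54 bp from that of replicate 2. It was present in 10.1% of whole optimal peaks and 0.758% of the weaker pooled entries.

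CycB3 (chr3R:24867934-24870816, minus strand) had a pooled entry of 68.7 (rank 7408) with a summit 39 bp upstream of its start. Replicate 3 listed 58.7 (rank 4243) at 82 bp and 42.1 (rank 7518) at 294 bp, both intergenic, and replicate 2 listed nothing. The pooled entry held the M1BP element shown above. CycA (chr3L:11826719-11833578, minus strand) had no pooled entry at its start. Its 2 pooled entries, of 40.5 (rank 21668) and 37.0 (rank 25977), lay in the 3' UTR, whereas replicate 3 had 62.5 (rank 3780) 53 bp inside the start, in the 5' UTR. Replicate 2 had no entry, so pooled list and replicate 3 placed their CycA entries at opposite ends of the gene.

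For the G1 pair, neither gene had an optimal peak by the rule. CycD (chrX:15906822-15909676, minus strand) held a pooled entry of 64.6 (rank 8250) 137 bp upstream of its single start, and replicate 3 had 23.0 (rank 21809) 123 bp downstream of it. Cdk4 (chr2R:16579470-16585448, plus strand) has 5 starts over 1363 bp. Its pooled entries of 100.1 (rank 4151) and 97.6 (rank 4303) lay in an intron, 1149 and 918 bp downstream of the innermost start. Replicate 3 placed 59.5 and 46.8 at nearly the same positions, 925 and 1133 bp from that start. The strongest Cdk4 entry of replicate 3, however, was 80.3 (rank 2483), 482 bp upstream of the outermost start. The replicate 3 entry nearest to a start was 33.9 (rank 11164), 88 bp downstream of start 3 in the 5' UTR. The remaining 3 were 37.2 in an intron, 29.2 in the 3' UTR and 24.1 in the antisense RNA gene asRNA:CR44375. An optimal peak of 127 (rank 2931) covered the place of the strongest one, but its summit was 527 bp from the outermost start, just outside the window. Replicate 2 listed no entry at either gene.

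For S phase entry, CycE (chr2L:15727581-15748150, minus strand) carried the second strongest peak of the set, in an intron between its outer starts. The optimal peak (chr2L:15746915-15747324, signal 229) had its summit 1030 bp downstream of the outermost start and 510 bp upstream of the next, so it missed the 500 bp window by 10 bp. Replicate 3 resolved it into a pair of entries, 99.9 (rank 1725) at 407 bp and 82.7 (rank 2370) at 606 bp upstream of that start. Replicate 2 had no entry within 1000 bp of the summit. Of the pooled entries, 95.8% have one width, 410 bp, with the summit set 205 bp from the edge, and a difference of 10 bp has to be read with that in mind. GC content of the window of 101 bp around this summit was 15.8%, and 19 of the 2971 optimal peaks (0.640%) were at or below that value, against a median of 35.6%.

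The CycE starts differed by replicate. At the innermost start, 16366 bp downstream of the outermost, replicate 2 had its strongest CycE entry (37.5, rank 7848, 115 bp upstream) and the pooled list 45.0 (rank 17240, 108 bp upstream), where replicate 3 had none. At the outermost start only replicate 3 had an entry (40.8, rank 7940, 15 bp away), within the antisense RNA gene asRNA:CR44866. The other CycE entries, 2 pooled and 3 from replicate 2, were intronic with signals from 25.9 to 39.5. Cdk2 (chr3R:20735623-20738414, plus strand), the partner kinase, had a pooled entry of 52.4 (rank 12430) with a summit 45 bp upstream of its start. In replicate 3 a summit of 61.1 (rank 3914) lay at the same base, with another of 41.3 (rank 7779) 355 bp upstream in the pseudogene CR42786. Replicate 2 had none. The starts of the noncoding genes mir-995 (345 bp), FBtr0304199_df_nrg (361 bp) and FBtr0304200_df_nrg (399 bp) were also within 500 bp of that summit. The pooled window held the DRE palindrome TATCGATA, the element of the factor DREF, which was found in 4.11% of optimal peaks and 0.810% of the weaker entries.

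Support from the replicates separated fzy from the other genes. In replicate 2, 1 of the 10 genes (fzy) had one of its 2971 strongest entries within 500 bp of a start, against 13.6% of protein-coding genes. In replicate 3 there were 4 (CycB, CycE, Cdk4 and fzy), against 20.1%. An optimal peak found in both replicates, with the pooled summit inside one of the strongest entries of each, lay at 1 start (fzy), against 10.9%. The shares of the members are near these backgrounds or rest on few genes. Over the whole lists, 4 of 10 genes had a start entry in replicate 2 (CycB, CycE, stg and fzy), against 31.7% of protein-coding genes. In replicate 3 all 10 had one, against 56.3%, and in the pooled list 8 had one, against 50.6%, the exceptions being CycA and Cdk4. Across the series, 614 optimal peaks (20.7%) had no entry in replicate 2 and 25 had none in replicate 3. Whether the depth of the libraries differed was not known, since the lists hold no read counts.

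In the order of the genes by strongest entry, only fzy kept its place with the same site in all lists. CycE came next in each list, but not with the same site. Its strongest entry lay in the intron between the outer starts in the pooled list and replicate 3, and at the innermost start in replicate 2. In the pooled list it ran fzy, CycE, Cdk1, CycB, Cdk4, CycB3, CycD, Cdk2, stg and CycA, with signals from 2325 down to 40.5. In replicate 3 it ran fzy, CycE, CycB, Cdk4, CycA, Cdk2, CycB3, stg, CycD and Cdk1, from 1084 down to 22.3. In replicate 2 it was fzy (1246), CycE (37.5), CycB (30.1) and stg (28.8), the rest without entries. The fzy entry stood apart in each of the 3 lists, while neighbours further down changed places between lists and were not separated by their replicate values.

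The 3 members with a peak at a start all had a head-to-head partner, as did 1704 of the 2561 protein-coding genes with such a peak. A partner was a protein-coding start on the opposite strand, facing away and within 1000 bp. It was present at 5056 of the 13986 protein-coding genes. Among the 10 members, 4 had one: fzy (cni, 230 bp), Cdk1 (mRpS7, 400 bp), stg (CG45544, 685 bp) and CycB (stl, 912 bp). Of these 4, fzy, Cdk1 and CycB had an optimal peak at a start, where 33.7% of the 5056 protein-coding genes with such a partner did. None of the 6 other members had one, against 9.60% of the 8930 protein-coding genes without such a partner. The difference among the members was not tested.

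The sequence strings were spread over the promoters with and without peaks. In the 250 bp before to 50 bp after any of a gene's starts, AGGGNTG occurred at CycB, CycD, Cdk4 and fzy, 4 of 10 members, and at 13.3% of 13945 protein-coding genes. The full core CAGGGCTG, which contains AGGGNTG, occurred there at CycB alone among the members, 202 bp before the outermost start, and at 2.71% of genes. Of the genes with the full core, 80.2% had an optimal peak at a start, and 47.1% of those with AGGGNTG. The DRE palindrome occurred at CycA (11 bp before the start), Cdk2 (61 bp) and Cdk4 (51 bp before 1 of its starts), and at 10.2% of genes. None of these 3 members had an optimal peak at a start, where 30.1% of all genes with the palindrome had one. GGTCACACT occurred at CycB (168 bp), CycB3 (56 bp) and fzy (8 bp), and at 6.78% of genes. CGATA occurred at CycA, CycB, CycD, Cdk2 and Cdk4, and at 53.1% of genes, and every DRE palindrome contains it on each strand. The E-box CACGTG occurred at none of the members and at 5.34% of genes. An optimal peak lay at a start of 30.8% of genes with GGTCACACT, 23.2% of those with CGATA and 26.2% of those with CACGTG. For all protein-coding genes the share was 18.3%. At the summits themselves, within 50 bp, AGGGNTG was found at fzy and CGATA at CycB, in 17.2% and 23.0% of all optimal peaks, and no string was found at Cdk1 or CycE.

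The genes whose start peaks were most alike in signal were found by the sum of absolute log2 ratios over the lists. For fzy this was pre-mod(mdg4)-AA, with signals of 2333 in the pooled list, 1234 in replicate 2 and 1084 in replicate 3 and a sum of 0.02 over 3 lists. For CycB it was CG9630 (139, 30.4 and 89.9, sum 0.05 over 3 lists). For Cdk1, among genes likewise unlisted in replicate 2, it was Hel89B (139 pooled and 22.8 in replicate 3, sum 0.17 over 2 lists).

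A wider list of 62 other cell cycle genes in 8 roles, chosen with earlier results of these data known, placed the members in their pathway. An optimal peak lay at a start of 15 of them (24.2%), beside the 18.3% of all protein-coding genes, with a median signal of 225. Peaks found in both replicates lay at 7 of the 62, beside 10.9% of all. None of the 7 other cyclins (CycC, CycG, CycH, CycJ, CycK, CycT and CycY) had one. Checkpoint genes had 4 of 10, led by lok, the Chk2 kinase (signal 3332, rank 36), mad2 of the spindle checkpoint (2190, rank 106) and grp, the Chk1 kinase (1469, rank 247), all among the strongest entries of both replicates. The gene squ also starts within 500 bp of the grp summit. The lok summit was nearer to barr, a condensin gene (153 bp), than to lok (205 bp). The other checkpoint gene, named after its values were seen, was Bub3 (140), whose neighbour Cap-D2 starts at nearly the same distance.

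Of 9 other Cdks and Cks subunits 3 had a peak: Cdk12, a kinase of transcription elongation (2054, rank 127, SAK also starting within 500 bp), Cdk8 of the Mediator (1457, rank 251) and Eip63E (154). Cdk12 and Cdk8 were among the strongest entries of both replicates. Mitotic kinases and regulators had 3 of 9, with endos, an inhibitor of protein phosphatase 2A (302), mts, the catalytic subunit of that phosphatase (225), and aurA (132, with CG3281 also in the window). At endos and mts the starts of CG6650 (3 bp) and Rack1 (7 bp) lay nearer to the summit. Of the 3, endos alone was among the strongest entries of both replicates. The anaphase-promoting complex had 2 of 13, its subunit gene Cdc16 (204, among the strongest entries of both replicates, orb also in the window) and fzr (140). The summit at fzr, the Cdh1 relative of fzy, was 475 bp away and was not listed in replicate 2. G1/S transcription had 2 of 5, Dp (292), the partner of E2F proteins, and Rbf (127), the retinoblastoma relative, neither listed in replicate 2. Genes of Cdk inhibition and Cdk1 phosphorylation had 1 of 6, the Cdk inhibitor dap (127, not listed in replicate 2), and sister separation 0 of 3.

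**Figure D3:**
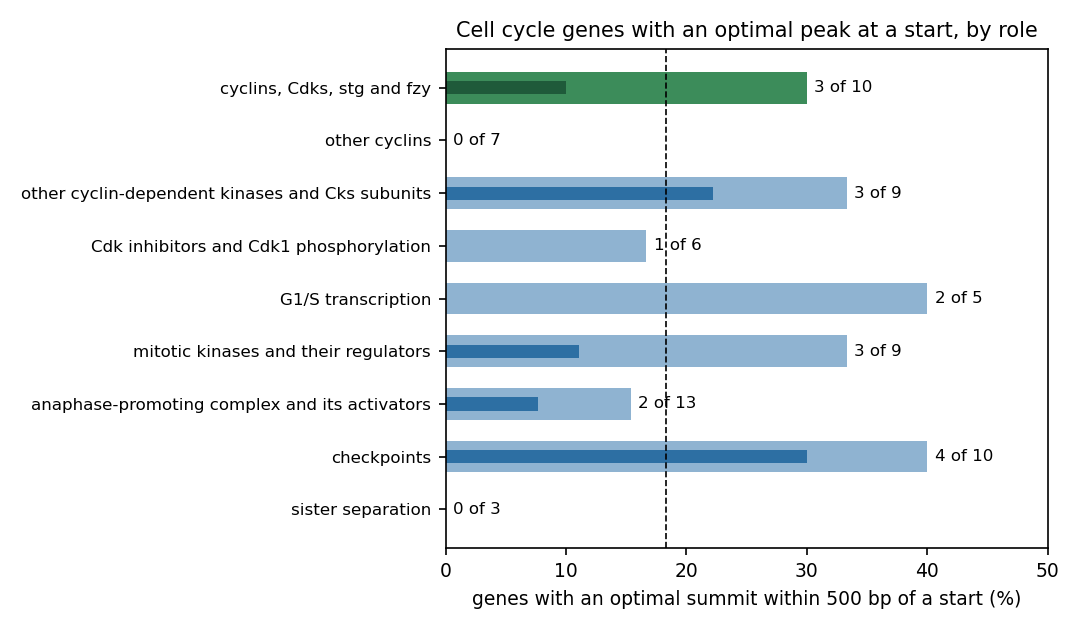
Share of genes (%) with an optimal summit within 500 bp of a start, for the 10 cyclins, Cdks, stg and fzy (green) and 8 roles of the wider list (blue); wide bars count all optimal peaks with the number of genes beside them, narrow dark bars those whose peak is found in both replicates, and the dashed line is the 18.3% of all protein-coding genes. Checkpoint genes have 4 of 10 bound, 3 of them in both replicates, and the other cyclins 0 of 7.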

How the data were processed

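Peak lists were analysed for 2 biological replicates of 1 group. The authors deposited a signal score and a summit offset per entry on dm6. Per the file descriptions, each replicate list came from that replicate's alignment and a control, the pooled list from both replicates, and the optimal peaks from those 3 lists by irreproducible discovery rate thresholding. Which peak caller and aligner were used is not given in the sources used here. Read depth is unknown, and the dm3 lists were not used here.

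Summits were placed on Ensembl release 115 gene models (BDGP 6.54) with Python 3.11.15, pandas 2.3.3 and NumPy 2.4.6, transposable elements left out. No entry passed the end of its arm. Starts are those of all transcripts. Motif strings were searched on both strands. The assignment of summits to starts was tested on simulated data. A replicate's strongest entries are as many as the optimal peaks, 2971. No significance test was made. The members and gene lists were chosen with earlier results of these data known. Of 62 symbols in the wider list, 1 (lmg) was matched through a synonym, to lmgA. Text names all members, genes sharing their summits, the most alike gene and up to 3 strongest per role. Alternatives varied the window, the starts, the peak threshold, the overlap and the replicates.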

Additional observations from a re-analysis of the deposited data

How the results depend on the processing

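Within 1000 bp of a start, 5 of the 10 genes had an optimal peak (CycE and Cdk4 added), beside 20.4% of all protein-coding genes. In the stronger part of the optimal peaks the count was 1 (fzy), as it was among peaks found in both replicates. Leaving out 1 replicate gave 1 (replicate 2 alone) to 4 (replicate 3 alone). With 250 bp, or with only the outermost starts, it was 3 as before, beside 15.4% and 16.7% of all protein-coding genes. For the 62 cell cycle genes the count of 15 became 8 and 7 in the stronger part and in both replicates, and 12 to 19 with a replicate left out. For all protein-coding genes 2561 became 1514 and 1520, and 1907 to 2808. Of the 3 start peaks, 1 was found in both replicates, and 2 (CycB and fzy) when any entry of the whole lists counted. Of all 2971 optimal peaks, 1739 (58.5%) were found in both replicates, and 2336 when any entry counted. Any of the 6 motif strings was present within 50 bp of the summit at 2 of the 3 start peaks, AGGGNTG at fzy and CGATA at CycB. Within 25 bp it was 0. Of all optimal peaks, 17.2% held AGGGNTG and 23.0% CGATA within 50 bp, and 11.1% and 13.3% within 25 bp. The cause of these shifts was not tested. For the percentile of each gene's strongest start entry, 15 of 16 window alternatives left the value identical, the exception being CycE (57.5 to 4.4 within 1000 bp). Leaving out a replicate was counted as moving 10 of 12 values, among them Cdk1 (8.08 to 82.3 in replicate 3) and CycB (8.43 to 50.1 in replicate 2). The moved values also include the small change of fzy (0.31 to 0.327 in replicate 3), while CycB in replicate 3 (8.43 to 6.7) was counted as not moved. The count of 10 is therefore no measure of the size of the changes. For CycE (57.5 to 5.75 in replicate 3) and stg (71.8 to 56.7 in replicate 2) the entries compared lie at different starts. Of the 8 genes with such a percentile, 4 have a start entry in 1 replicate and so no spread to compare with. No paired analysis was possible because there is 1 group. The depth is unknown, so an absent entry says only that none was listed. Untagged embryos were not analysed here.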

Other observations

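Optimal peaks also lay just beyond the members, outside the rule that chose the entries. Near CycB, a peak outside the gene was stronger than the one at its start, and it cannot be assigned to CycB. It lay 558 bp beyond the 3' end of the gene (chr2R:22802830-22803078), with a signal of 530 and rank 590, and it was among the strongest entries of replicate 2 (330, rank 512) and of replicate 3 (180, rank 802). Its summit was intergenic, and no gene started within 500 bp of it. Beyond the 3' end of Cdk4, by 583 bp, lay a peak of 156 (rank 2185) at the start of RpLP2, a ribosomal protein gene, which replicate 2 did not list and replicate 3 listed at 68.2 (rank 3262).

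At Cdk1 the pooled signal of 146 stood beside 21.3 in replicate 3 and no entry in replicate 2. For the 2336 optimal peaks listed in both replicates, the median ratio of pooled signal to the summed replicate signals was 1.003. The Cdk1 peak is not among them, and the cause of its difference was not tested. The strongest replicate 3 entry within 1000 bp of that summit, 45.9, lay 654 bp away on the mRpS7 side. Signal tracks were not analysed here.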
